A study of Mus musculus with 8 samples.

Results

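IGHD1-1 is one of the short diversity (D) gene segments of the mouse immunoglobulin heavy-chain locus, and its junctions in germinal-centre B cells are described here. The series sequenced paired B-cell receptors of spleen germinal-centre B cells from mice with Dtx1, the gene of the ubiquitin ligase Deltex-1 that is linked to Notch signalling, and from mice without it, 10 days after immunization. There were 4 libraries labelled WT (genotype Dtx1+/+) and 4 labelled KO (Dtx1-/-), the cells having been enriched with beads that bind the germinal-centre lectin ligand PNA and then sorted. The sources used here do not give the immunogen, the strain, the age or the number of mice. A paired cell is a droplet barcode with exactly 1 heavy-chain and 1 light-chain contig, and 40603 cells met this. An IGHD1-1 cell is a paired cell whose heavy contig carries IGHD1-1 in the deposited D gene column. There were 3385 of them, 1467 WT and 1918 KO, with 372, 368, 352 and 375 in WT replicates 1 to 4 and 463, 526, 479 and 450 in KO replicates 1 to 4.

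A heavy chain is built in the bone marrow by joining a D segment to a J segment and then a V segment to the DJ piece. Enzymes trim the ends and add bases without a template, so that the third complementarity-determining region (CDR3), the loop at the centre of the antigen-binding site, is made of the end of V, what is left of D, the start of J and added bases. A D segment can be read in 3 frames, which give different residues. Mouse D segments are mostly found in the frame rich in tyrosine and glycine, and a frame with stop codons can be used only where trimming has removed them. In germinal centres the assembled gene is then mutated, and its constant region can be switched from IgM to other classes.

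RefSeq places Ighd1-1 on chr12:113482170-113482192 (build GRCm38.p6, which is mm10). Its 23 bases compare with 11 to 17 for the other D segments that are not pseudogenes in that table. The table holds no D sequence, so the segment was read from the junctions themselves. Starting from the most shared stretch, a base was added as long as at least 60% of distinct junctions carried it. This settled 22 of the 23 annotated bases over 1664 distinct junctions. At which end of the segment the remaining base lies was not tested. Base numbers below count within the 22 settled bases. The sequence is shown because every match, frame and trimming value below is measured against it; capitals mark the bases so obtained.
IGHD1-1: TTATTACTACGGTAGTAGCTAC
Read from its second base, it encodes tyrosine, tyrosine, tyrosine, glycine, serine, serine and tyrosine, which is called the tyrosine frame here. Read from base 3 it encodes isoleucine, threonine, threonine, valine, valine and alanine (the second frame). Read from its first base it holds stop codons (the third frame).

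The 4 largest IGHD1-1 clones of each pool show what these junctions look like. Each line is the most common CDR3 of a clone from the conserved cysteine codon to the conserved tryptophan codon, with capitals for the longest exact match with the segment above.
WT clone 1: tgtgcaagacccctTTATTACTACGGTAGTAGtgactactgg
WT clone 2: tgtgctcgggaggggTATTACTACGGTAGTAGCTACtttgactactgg
WT clone 3: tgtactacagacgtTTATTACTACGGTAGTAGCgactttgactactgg
WT clone 4: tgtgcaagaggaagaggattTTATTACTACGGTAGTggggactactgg
KO clone 1: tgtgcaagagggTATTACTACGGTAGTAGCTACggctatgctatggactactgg
KO clone 2: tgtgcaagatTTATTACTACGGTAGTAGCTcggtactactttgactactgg
KO clone 3: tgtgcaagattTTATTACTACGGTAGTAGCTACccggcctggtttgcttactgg
KO clone 4: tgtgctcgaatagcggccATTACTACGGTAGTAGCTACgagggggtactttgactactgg
All 8 clones keep 16 to 22 bases of the segment. KO clones 2 and 4 read it in the second frame and the other 6 in the tyrosine frame. At the 3′ end of the segment the match stops after base 16, 18 or 19 in WT clones 4, 1 and 3, whereas in WT clone 2 and KO clones 1, 3 and 4 it runs to base 22. In KO clone 2 it stops after base 20.

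The libraries of one genotype shared most of their larger clones, as loadings of 1 pool of cells would. Of the WT clones with at least 2 IGHD1-1 cells, 157 of 179 were found in 2 or more WT libraries, and of the KO clones 228 of 272. Any pair of libraries shared 28 to 54 barcodes. Every SD below is therefore the spread between loadings (n = 4 per pool), and every p between WT and KO compares 2 pools rather than genotypes over animals. The tests of IGHD1-1 cells against cells of another D gene within libraries count 8 loadings of what look like 2 pools as 8 replicates, so their p-values may be too small. The heavy contig of an IGHD1-1 cell had a median of 24 to 25 unique molecular identifiers (UMIs) in WT libraries and 42 to 46 in KO libraries. Values were therefore also taken in cells with 20 to 40 heavy-chain UMIs. Loss of Dtx1 could not be read from receptor contigs. No T-cell receptor contig was listed. IgD, a sign of naive cells, was the class of 10 IGHD1-1 cells, but 71.1% ± 1.35 of WT and 82.5% ± 2.28 of KO IGHD1-1 cells were unmutated IgM or IgD cells, whereas mutated receptors are the usual mark of germinal-centre B cells. The part of such cells in the results was not tested.

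IGHD1-1 was the most often named D gene. It made up 36.5% of the 9280 paired cells with any D gene named, ahead of IGHD2-4 (1239 cells), IGHD4-1 (885), IGHD2-3 (882), IGHD2-6 (862), IGHD2-8 (789) and IGHD3-2 (753). As a share of all paired cells, IGHD1-1 was 7.68, 7.90, 7.62 and 8.18% in WT replicates 1 to 4, and 8.35, 9.21, 8.56 and 8.92% in KO replicates 1 to 4. The highest WT library thus lay below the lowest KO library, with means of 8.76% ± 0.38 in KO and 7.84% ± 0.25 in WT. Reassigning the 8 libraries in all 70 ways, a two-sided exact permutation test gave p = 0.0286, the smallest it can give. As a share of cells with a D gene named, the pools overlapped (37.5% ± 1.83 in KO, 35.3% ± 1.15 in WT, exact permutation p = 0.114). In the fit over all D genes, 4 of 8 were higher in KO (50%) and 2 lower (25%), or 1 and 2 under TMM scaling. The count rested on single libraries: edgeR called 0 without WT replicate 1 (5 at an unadjusted p under 0.05) and 1 without WT replicate 2, 1 with each clone counted once, and DESeq2 called 2. IGHD1-1 was among the higher ones, with a log2 difference of 0.16 ± 0.05 (SE; adjusted p = 0.0107, edgeR quasi-likelihood test). This call was lost with each clone counted once (0.12, adjusted p = 0.144), in DESeq2 (0.11, adjusted p = 0.0857) and without WT replicate 1 (0.15, adjusted p = 0.0646).

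In total, 18 values of IGHD1-1 cells were tested between the pools with this permutation test. For 10 of them the 4 KO libraries did not overlap the 4 WT libraries, each with an exact permutation p of 0.0286, but the Benjamini-Hochberg value over the 18 was 0.0514 for each. At a threshold of 0.05 no value was therefore called, and the pool differences below are given as non-overlap of libraries with that adjusted value, unless a sentence gives another p. The tyrosine-frame and second-frame shares are both among the 10 and mirror each other, because no IGHD1-1 cell read the third frame.

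Being named depended on how much of the segment was left. Of the 2538 paired cells with a match of 19 or more bases, 99.5% were named IGHD1-1, and these were 74.6% of the IGHD1-1 cells. With 16 to 18 matched bases 21.6% of 3354 cells were named, and with 12 to 15 bases 3.05% of 3672. A further 25 IGHD1-1 cells had fewer than 12 matched bases, the shortest 8. Among cells with 12 or more matched bases, those not named IGHD1-1 carried no D gene in the file, and none carried another one. The IGHD1-1 cells are thus mostly those with a long exact match. Trimming and mutation inside the segment both shorten a match, and their parts were not told apart.

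**Figure D1:**
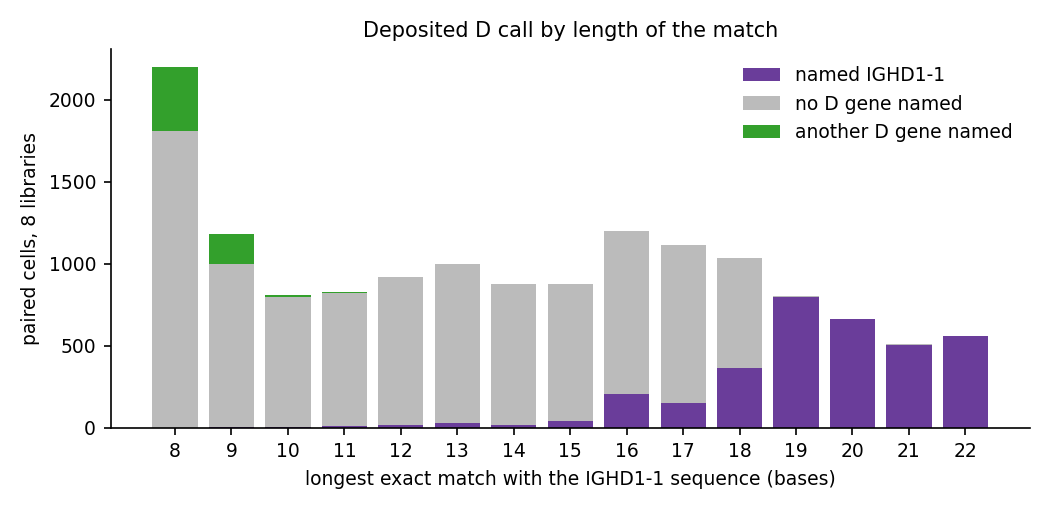
Paired cells of all 8 libraries (y axis) by the length in bases of the longest exact match with the IGHD1-1 sequence (x axis), coloured by the D gene named in the file. Nearly all cells with 19 or more matched bases are named IGHD1-1, and most with 12 to 18 are not.

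With membership set by sequence in place of the name, the pool difference in usage was much smaller. A match of at least 12 bases was found in 9564 paired cells (23.5%), of which 35.1% were named IGHD1-1. Such cells were 23.2, 23.9, 23.4 and 22.7% of paired cells in WT replicates 1 to 4 and 22.7, 24.8, 23.1 and 24.5% in KO replicates 1 to 4. The pools overlapped (23.8% ± 1.05 in KO, 23.3% ± 0.52 in WT, exact permutation p = 0.429). What differed was the named share of those cells, which was 36.7% ± 0.40 in KO and 33.3% ± 1.53 in WT.

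**Figure D2:**
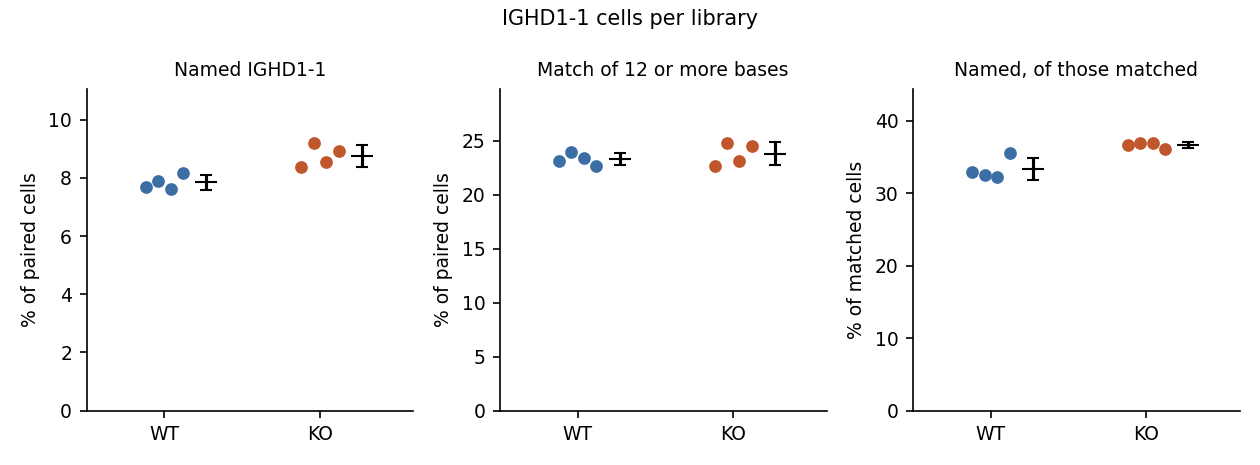
Each point is 1 library and the bar its pool's mean and SD (n = 4); the y axes give percent of paired cells named IGHD1-1 (left), percent of paired cells with a match of 12 or more bases (middle) and the percent of those matched that were named (right). The pools separate in the left and right panels and overlap in the middle one.

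The match with the segment was longer in each KO library than in any WT library. The mean match of IGHD1-1 cells was 19.13, 19.01, 19.21 and 18.98 bases in WT replicates 1 to 4 and 19.57, 19.67, 19.58 and 19.56 in KO replicates 1 to 4. The difference of 0.51 bases lay at the 3′ end, which joins J. There 1.89 ± 0.07 bases were unmatched in WT and 1.37 ± 0.03 in KO, against 1.02 ± 0.09 and 1.03 ± 0.03 at the 5′ end, which joins V. The match ran to the last settled base in 57.4% ± 0.43 of KO and 46.4% ± 1.76 of WT IGHD1-1 cells. It covered all 22 bases in 19% ± 2.67 of KO and 13.3% ± 0.37 of WT cells. With each clone counted once the difference in matched bases was 0.41 (p = 0.0286), without IGHV8-8 and IGHV1-81 cells it was 0.28 (p = 0.0286), and in cells with 20 to 40 UMIs 0.23 (p = 0.0286), all exact permutation tests. Among all cells with a match of at least 12 bases, the match was 16.6 ± 0.05 bases in KO and 16.4 ± 0.02 in WT.

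The CDR3s of IGHD1-1 cells were long and rich in tyrosine. Their length, counted in residues with the conserved ends, had a median of 17 (range 11 to 24), against 16 (6 to 22) in the 5895 cells with another D gene named and 14 in the 31323 cells with none. Within libraries the mean was 17.3 in IGHD1-1 cells and 15.4 in cells of another D gene, higher by 1.93 ± 0.34 residues (SD, n = 8) in 8 of 8 libraries. Tyrosine made up 28.8% of the residues between the conserved ends, against 23.7%, again higher in 8 of 8 libraries. Both are given as a description with no p, since a cell is named IGHD1-1 almost only where most of this long, tyrosine-rich segment is left. A cell of IGHD1-1 held 4.42 ± 0.06 tyrosines in KO and 4.32 ± 0.06 in WT, and a cell with another D gene 3.34 ± 0.05 and 3.17 ± 0.04.

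Between the pools, IGHD1-1 CDR3s were 16.89, 17.20, 16.97 and 17.05 residues long in WT replicates 1 to 4 and 17.50, 17.64, 17.53 and 17.64 in KO replicates 1 to 4, without overlap. The difference was 0.55 residues, and fell to 0.19 with each clone counted once (exact permutation p = 0.0571), to 0.25 without IGHV8-8 and IGHV1-81 cells (p = 0.0857, exact permutation) and to 0.33 at 20 to 40 UMIs (p = 0.0571, exact permutation). Bases outside the D match numbered 33.1 ± 0.20 in KO and 32.0 ± 0.48 in WT. The tyrosine percentage was 28.5 ± 0.33 in KO and 29.0 ± 0.57 in WT, with overlapping libraries (exact permutation p = 0.171). With membership by a match of at least 12 bases the order turned and the pools separated, with 24.8 ± 0.04 in KO and 24.1 ± 0.43 in WT (exact permutation p = 0.0286, adjusted p = 0.0429).

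**Figure D3:**
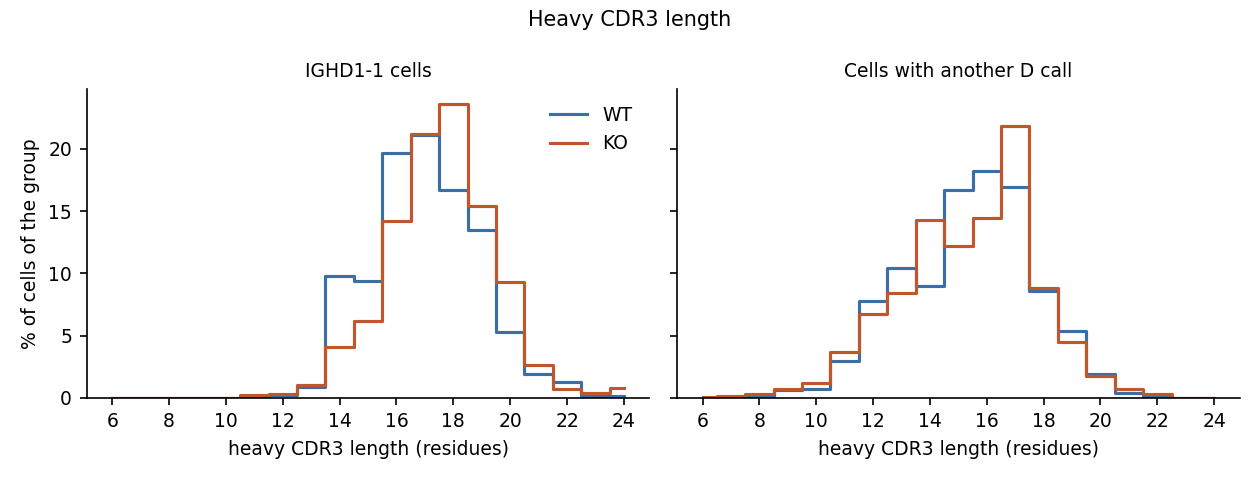
Percent of cells of each group (y axis) by heavy CDR3 length in residues (x axis), for IGHD1-1 cells (left) and cells with another D gene named (right), WT and KO, with the 4 libraries of a group added. The IGHD1-1 curves lie to the right of the others, and the KO curve for IGHD1-1 lies to the right of the WT curve.

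The tyrosine frame dominated. It was read in 3033 of the 3385 IGHD1-1 cells, in 1318 clones, and the second frame in 352 cells of 164 clones. CDR3s in the tyrosine frame held a mean of 4.67 tyrosines, and those in the second frame 1.83. The third frame was not seen in any IGHD1-1 cell; a count of 0 allows up to 0.570 to 0.852% of the IGHD1-1 cells of a library. Only productive contigs are listed in the files, so junctions with a stop codon could not be counted. Among cells with at least 12 matched bases, 131 read the third frame, and their longest match was 14 bases, which ends before the first stop codon is complete. They came from 55 clones and were 2.03% ± 0.22 of such cells in KO and 0.574% ± 0.11 in WT. This difference was not tested with each clone counted once.

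The second frame took 8.06, 9.51, 9.66 and 7.20% of IGHD1-1 cells in WT replicates 1 to 4 and 11.9, 10.3, 11.3 and 14% in KO replicates 1 to 4. The pools did not overlap, but of the 226 KO cells in this frame 40 belonged to KO clone 2 and 28 to KO clone 4. With each clone counted once the shares were 11% ± 2.24 in KO and 10.4% ± 2.06 in WT (exact permutation p = 0.714). With membership by a match of at least 12 bases the order turned, with 14.9% ± 0.70 in KO and 16.8% ± 0.80 in WT (exact permutation p = 0.0286). By J partner, the second frame was read in 13.5% of IGHJ2, 11.9% of IGHJ4, 9.79% of IGHJ1 and 1.82% of IGHJ3 cells. KO clones 2 and 4 held 68 of the 176 IGHJ2 cells in this frame, and without them IGHJ2 was at 8.71%. With each clone counted once the shares were 11.5% for IGHJ2, 13.7% for IGHJ4, 12.5% for IGHJ1 and 4.13% for IGHJ3, the lowest by either count.

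IGHJ2 was the most frequent J partner of IGHD1-1. The 4 J segments lie on chromosome 12 in the order IGHJ1 (113429781 to 113429833), IGHJ2 (113429468 to 113429515), IGHJ3 (113429085 to 113429132) and IGHJ4 (113428514 to 113428567) from the D side, since the locus reads toward lower coordinates. IGHJ2 was the partner in 1308 IGHD1-1 cells, IGHJ4 in 773, IGHJ1 in 756 and IGHJ3 in 548. Within libraries IGHJ2 took 39.2% of IGHD1-1 cells against 20.7% of cells with another D gene (higher in 8 of 8 libraries), and IGHJ1 22.1% against 15.4% (higher in 8 of 8). IGHJ3 took 16.1% against 38.0% (lower in 8 of 8). These passed a two-sided exact sign-flip permutation test (p = 0.0078 each, the smallest that 8 libraries allow; adjusted p = 0.0107 over 11 measures). IGHJ4 took 22.6% against 25.9% and was lower in 6 of 8 libraries, which was not called (exact sign-flip p = 0.0469, adjusted p = 0.0516). Cells with a match of at least 12 bases were also set against all paired cells with a shorter one, most of which had no D gene named. The differences were then 7.15 percentage points for IGHJ1, 10.3 for IGHJ2 and -11.1 for IGHJ3. In this other comparison group IGHJ2 took 27.8% and IGHJ3 29.0%. IGHJ4 was then lower in 8 of 8 libraries, by -6.28 points (exact sign-flip adjusted p = 0.00859). Of the cells so matched, 33.83% with IGHJ1, 36.1% with IGHJ2, 31.95% with IGHJ3 and 37.49% with IGHJ4 were named IGHD1-1. A J base that equals the next D base also counts in the match. Whether this helped cells of some J genes to be matched or named was not tested.

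Between the pools the shares of the J partners of IGHD1-1 overlapped. IGHJ2 was 49.7, 36.7, 45.2 and 40.5% in WT replicates 1 to 4 and 38.7, 34.0, 35.1 and 33.6% in KO replicates 1 to 4. WT replicate 2 lay below KO replicate 1, and p was 0.0571 (exact permutation). IGHJ1 was 23.7% ± 1.71 in KO and 20.5% ± 3.28 in WT (p = 0.0571, exact permutation), IGHJ3 16.4% ± 1.43 and 15.9% ± 2.37 (p = 0.771, exact permutation), and IGHJ4 24.6% ± 2.14 and 20.6% ± 4.33 (p = 0.200, exact permutation). With each clone counted once the KO minus WT difference was -2.37 percentage points for IGHJ2 (p = 0.486, exact permutation), against -7.70 over cells, and 1.20 for IGHJ1 (p = 0.629, exact permutation), against 3.26. Over all cells with a match of at least 12 bases, IGHJ2 was 33.6% ± 1.35 in KO and 42.7% ± 0.83 in WT and IGHJ1 26.7% ± 1.12 and 18.6% ± 0.72, without overlap (exact permutation p = 0.0286 each, adjusted p = 0.0429).

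IGHV8-8 and IGHV1-81 were the leading V partners. Of 97 IGHV genes in paired cells, 79 were joined to IGHD1-1. IGHV8-8 (chromosome 12, 115294066 to 115294362) held 602 IGHD1-1 cells in 227 clones with 55 light V genes, and 27.1% of all IGHV8-8 cells were IGHD1-1 cells. Its share of IGHD1-1 cells was 11.3, 9.78, 12.8 and 12.3% in WT replicates 1 to 4 and 21.8, 24.5, 22.1 and 21.6% in KO replicates 1 to 4. Every KO library thus lay well above every WT library. IGHV1-81 (115920279 to 115920572) held 457 cells in 137 clones. Its share was 22.3, 19.6, 19.9 and 18.7% in WT replicates 1 to 4 and 9.50, 7.80, 8.77 and 7.78% in KO replicates 1 to 4, the opposite order. The next partners by mean share were IGHV1-9 (4.40%), IGHV8-12 (4.37%), IGHV1-26 (4.29%), IGHV1-18 (3.94%), IGHV1-64 (3.81%) and IGHV9-3 (3.11%).

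Against cells with another D gene in the same libraries, IGHV8-8 was the gene most clearly over-represented with IGHD1-1. It took 17.0% of IGHD1-1 cells and 5.40% of the others, a log2 difference of 1.67 ± 0.11 (SE; adjusted p = 4.59e-11, edgeR with the library as a block). Of 54 IGHV genes tested, 3 were higher with IGHD1-1 (5.56%) and 8 lower (14.8%), or 6 and 7 under TMM scaling. The other higher ones were IGHV1-81 (0.53 ± 0.10, adjusted p = 0.000703) and IGHV14-1 (3.50 ± 0.83), of whose 51 IGHD1-1 cells 48 belonged to WT clone 3 and which DESeq2 did not call (adjusted p = 0.358). Lower were IGHV1-62-2 (-2.12 ± 0.35), IGHV2-5 (-1.53 ± 0.31), IGHV2-9-1 (-2.22 ± 0.48) and IGHV10-3 (-2.67 ± 0.60), with adjusted p from 0.000133 to 0.00175 (edgeR). For IGHV2-9-1 the call was lost between cells with a match of at least 12 bases and all other paired cells (-0.12, adjusted p = 0.711, edgeR). Of those 31039 other cells 25119 had no D gene named, so the comparison group changed along with the membership. IGHV1-9 was also lower (-0.51 ± 0.15, adjusted p = 0.0129, edgeR), but not with each clone counted once (0.02, adjusted p = 0.891). IGHV12-3, a V gene associated with B-1 cells, was listed in 0 IGHD1-1 cells and in 86 cells of another D gene, 78 of them KO. Against a floor of 3 cells over all IGHD1-1 cells, that is at least 16.5-fold lower. This limit counts cells and not clones, and IGHV12-3 had no value with each clone counted once. With each clone counted once IGHV8-8 (1.49) and IGHV1-81 (0.43) remained higher (adjusted p = 1.40e-14 and 0.00579, edgeR). Between cells with a match of at least 12 bases and all paired cells with a shorter one, these differences were 1.44 and 1.125 (adjusted p = 7.47e-11 and 2.69e-08, edgeR). Of cells so matched, 59.1% with IGHV8-8, 42.0% with IGHV1-81 and 22.5% with IGHV1-9 were named IGHD1-1. The V shares of named cells thus also depend on the naming.

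Between the pools, 5 of 22 V partners tested had a higher share of IGHD1-1 cells in KO (22.7%) and 7 a lower one (31.8%), or 5 and 4 under TMM scaling. IGHV8-8 was higher by 0.97 ± 0.09 on the log2 scale (adjusted p = 1.15e-13, edgeR) and IGHV1-81 lower (-1.25 ± 0.10, adjusted p = 6.77e-16, edgeR). With each clone counted once the differences were 0.49 (adjusted p = 0.00915, edgeR) and -0.58 (adjusted p = 0.0119, edgeR), smaller but still called. With membership by a match of at least 12 bases they were 0.66 and -0.90 (adjusted p = 2.55e-11 and 2.74e-22, edgeR). The same order was seen in cells with another D gene, where IGHV8-8 was 7.33% in KO and 3.47% in WT and IGHV1-81 5.89% and 14.05%. IGHV1-55 had a lower share in KO (-1.96 ± 0.37), also with each clone counted once (-1.76, adjusted p = 0.00126, edgeR). IGHV1-72, known from responses to the hapten nitrophenyl, was higher (2.22 ± 0.39), with 2.96% ± 0.29 of KO and 0.614% ± 0.14 of WT IGHD1-1 cells. In cells with another D gene the order was the opposite, with 1.46% in KO and 2.61% in WT. The 66 cells came from 31 clones, 1 of which held 27, and the gene was under the filter with each clone counted once.

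Several other V calls rested on single clones. IGHV1-85 was higher in KO (3.49 ± 0.52), where 40 of its 53 cells were KO clone 2, and DESeq2 did not call it (adjusted p = 0.440). IGHV14-1 was lower in KO (-4.65 ± 0.55) through WT clone 3. IGHV8-12, with 52 of 140 cells in WT clone 2, differed by -1.23 ± 0.22, and IGHV1-18, with 60 of 140 cells in KO clone 1, by 1.03 ± 0.24. Neither was called with each clone counted once (-0.22 and 0.30, adjusted p = 0.551 each, edgeR). IGHV1-26 did not rest on 1 clone, with 141 cells in 56 clones, the largest of 15. It was lower (-0.61 ± 0.23, adjusted p = 0.0237, edgeR). With each clone counted once it was -0.67 and not called (adjusted p = 0.0769, edgeR). The call was also lost under DESeq2 (adjusted p = 0.128), and the difference turned to 0.45 with membership by a match of at least 12 bases.

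**Figure D4:**
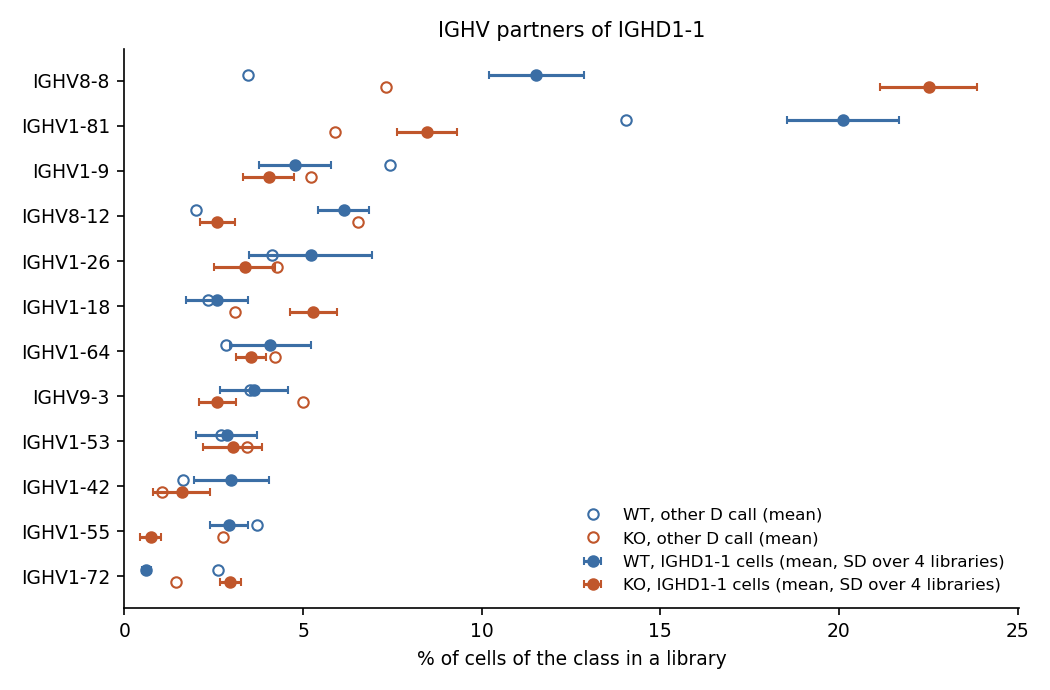
Share of cells (x axis, percent of a library's cells of the class) for the 12 IGHV genes most often joined to IGHD1-1 (y axis); filled points with bars are the mean and SD of IGHD1-1 cells over 4 libraries and open points the mean of cells with another D gene. IGHV8-8 and IGHV1-81 stand to the right of their open points in both pools and in opposite order between pools.

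The light chains paired with IGHD1-1 were spread over 80 V genes, whose shares were not tested between the pools. The 6 most frequent were IGKV1-135 (8.92% of IGHD1-1 cells, mean of 8 libraries), IGKV1-117 (5.56%), IGKV3-12 (5.34%), IGKV1-110 (5.31%), IGKV9-120 (4.84%) and IGKV10-96 (4.66%). IGKV1-135 was the partner in 287 IGHD1-1 cells but in only 48 clones, the largest being WT clone 1 with 82 cells. WT clones 1 and 4 held 82 and 37 of its 182 WT cells, and KO clone 1 held 60 of its 105 KO cells. IGKV1-135 was 12.4% ± 0.75 of WT and 5.44% ± 1.44 of KO IGHD1-1 cells. In cells with another D gene it had the same order, with 6.43% in WT and 2.30% in KO. IGKV10-96 went the other way in IGHD1-1 cells, with 6.86% ± 0.61 in KO and 2.46% ± 0.28 in WT over 79 clones. In cells with another D gene it was 2.778% in KO and 2.795% in WT. Lambda chains were rare with IGHD1-1, at 1.36% ± 0.40 in KO and 1.98% ± 1.11 in WT (exact permutation p = 0.343). Within libraries they were at 1.67% against 3.23% in cells with another D gene, lower in 7 of 8 libraries (exact sign-flip p = 0.0156, adjusted p = 0.0191), though not with each clone counted once (a difference of -1.08 percentage points, p = 0.162, exact sign-flip).

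Nearly all IGHD1-1 cells were IgM. Of 3372 with a constant gene named, 3208 were IGHM, 101 IGHG1, 27 IGHG3, 22 IGHG2B, 10 IGHD and 4 IGHG2C, and IGHA and IGHE were listed in 0 cells. Class-switched cells were 4.43% ± 0.99 in KO and 4.80% ± 1.09 in WT (exact permutation p = 0.629). Within libraries IGHD1-1 cells were less often switched than cells with another D gene, at 4.61% against 7.52%, lower in 8 of 8 libraries (exact sign-flip permutation adjusted p = 0.0107). Between cells with a match of at least 12 bases and all paired cells with a shorter one, the shares were 5.62% and 7.50%. Most cells with the shorter match had no D gene named. Switched cells carried more V mutations, and mutations inside D can remove the name. The part of this in the difference was not tested. Among the switched cells, 84 in KO and 70 in WT, IGHG1 took 31.2, 38.5, 66.7 and 40% in WT replicates 1 to 4 and 77.8, 89.5, 80.0 and 83.3% in KO replicates 1 to 4. The pools did not overlap, although each library held only 13 to 27 switched IGHD1-1 cells. The difference of 38.6 percentage points was 39.4 with each clone counted once (p = 0.0286, exact permutation) and 16.2 at 20 to 40 UMIs, where WT libraries spread by an SD of 42.7 (p = 0.486, exact permutation). Cells with another D gene had like shares, at 77.5% in KO and 46.0% in WT.

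IGHD1-1 cells carried few V mutations. The percentage of IGHV bases that differed from the inferred germline was 0.356, 0.355, 0.318 and 0.330 in WT replicates 1 to 4 and 0.175, 0.128, 0.173 and 0.162 in KO replicates 1 to 4, without overlap. The unmutated share was 84.0% ± 1.94 in KO and 71.7% ± 1.20 in WT. The mean number of mutations per mutated cell was 2.84 ± 0.18 in KO and 3.41 ± 0.08 in WT. At 20 to 40 heavy-chain UMIs the KO minus WT value for mutation was -0.12, against -0.18 over all IGHD1-1 cells, still without overlap (exact permutation p = 0.0286). The order between pools was the same in cells with another D gene. Their mutation was 0.203% in KO and 0.453% in WT, and their unmutated share 79.85% and 64.09%. Switched IGHD1-1 cells had more mutations than IgM cells in both pools, at 0.818% ± 0.11 against 0.129% ± 0.02 in KO and 1.22% ± 0.26 against 0.296% ± 0.04 in WT. Within libraries IGHD1-1 cells were less mutated than cells with another D gene (0.249% against 0.328%, lower in 8 of 8 libraries) and more often unmutated (77.8% against 72.0%, higher in 8 of 8), both with an exact sign-flip permutation adjusted p of 0.0107. Mutations inside D can remove the name, and their part in this difference was not tested.

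**Figure D5:**
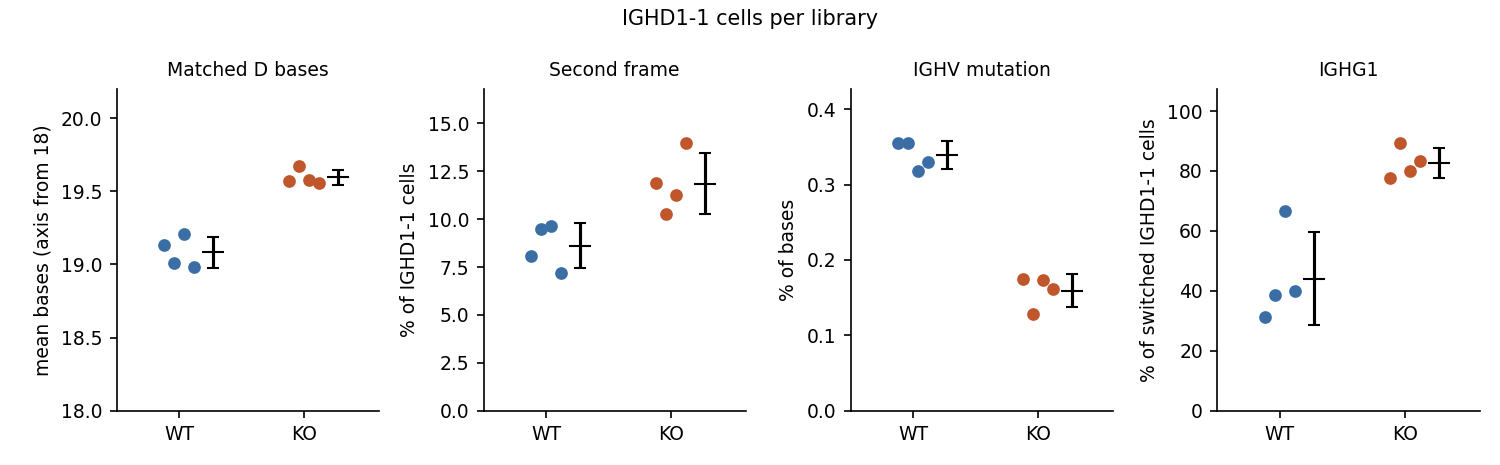
Each point is 1 library of IGHD1-1 cells and the bar its pool's mean and SD (n = 4); the y axes give mean matched D bases (axis from 18), percent of cells in the second frame, percent of IGHV bases mutated and percent of switched cells that are IGHG1. The 2 pools do not overlap in any of the 4 panels.

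IGHD1-1 cells fell into 590 clones in WT and 892 in KO, of which 411 and 620 held 1 cell. A clone shares its heavy and light V and J genes and CDR3 length, with CDR3 nucleotide identity of at least 0.85. Clones of 10 or more cells numbered 21 in WT and 28 in KO, and the 4 largest held 14.9% of WT and 8.24% of KO IGHD1-1 cells. At 352 cells per library, 54.8% ± 2.84 of WT and 44.0% ± 5.43 of KO cells were in clones seen more than once. The effective number of clones was 149.2 ± 7.14 in WT and 203.4 ± 20.01 in KO. Neither overlapped between the pools, though without thinning the expanded share differed by -6.51 percentage points with overlap (exact permutation p = 0.200).

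WT clone 1 joined IGHV1-81 to IGHJ2 and used IGKV1-135. It held 82 IGHD1-1 cells, spread as 25, 17, 22 and 18 over WT replicates 1 to 4, and 102 cells when clone members with no D gene named were added. Its CDR3 had 18 nucleotide versions, and 58.5% of its cells were unmutated in V. The other 7 clones printed above were nearly all germline in V, with 98.3% unmutated in KO clone 1 and 100% in the rest. KO clone 1 (60 cells) joined IGHV1-18 to IGHJ4, and KO clone 4 (28 cells) joined IGHV8-8 to IGHJ2. Of these 8 clones only WT clone 1 held switched cells, 4 in all. Over clones of at least 2 cells with an IGHD1-1 member, 79.6% of WT and 86.2% of KO members were themselves named IGHD1-1, so the name was also uneven inside clones.

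Some IGHD1-1 CDR3 proteins were found in several clones. Of 1584 distinct proteins, 1497 were found in 1 clone. The pools shared 23 proteins, which was 3.57% of the 644 in WT and 2.39% of the 963 in KO, but at the nucleotide level only 6 junctions (0.888% of WT and 0.604% of KO). The protein found in most clones joined IGHV8-8, IGHD1-1 in the tyrosine frame and IGHJ1 in a CDR3 of 19 residues. It was seen in 23 cells of 11 clones, 6 WT and 5 KO, through 6 nucleotide versions and with a different light V gene in each clone of a pool. The most common version of each pool is shown because the 2 encode the same protein and differ in how many D bases match (capitals), 21 in WT and 22 in KO.
WT, 6 cells: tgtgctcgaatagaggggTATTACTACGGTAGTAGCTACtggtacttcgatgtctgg
KO, 5 cells: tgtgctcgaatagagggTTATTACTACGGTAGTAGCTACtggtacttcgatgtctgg
The second most widespread protein was found in WT alone, in 9 cells of 9 clones with 8 light V genes, 8 of the clones using IGHV1-81. It joins IGHJ2 in a CDR3 of 14 residues and had only 2 nucleotide versions. Clones are also set apart by their light chain, so whether these came from separate heavy-chain joinings was not tested.
WT, 8 cells: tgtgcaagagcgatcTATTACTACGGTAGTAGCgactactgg
The third had 16 residues, used IGHV1-81 in 5 of 6 clones with IGHJ2, and was seen in 3 WT and 6 KO cells. Its most common versions again differ at the 5′ end of the D match.
WT, 2 cells: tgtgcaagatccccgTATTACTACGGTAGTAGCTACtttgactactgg
KO, 4 cells: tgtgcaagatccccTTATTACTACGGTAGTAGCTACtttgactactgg
The third protein shared by both pools, again with IGHV8-8 and IGHJ1, was in 5 clones, 3 WT and 2 KO. In every version printed here the match begins at the first or second settled base of the segment and is read in the tyrosine frame.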

How the data were processed

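The deposited tables list assembled receptor contigs of 8 libraries with read counts and UMI counts, whole numbers without normalization, per the file headers. Cell Ranger, R 4.3.1 and the build mm10 are named in the submitters' processing notes; the sources used here do not say how D genes were named. All 104649 contigs were productive. Barcodes with several heavy or light contigs were left out and no doublet caller was run. D matches, frames, clones and germlines (the most common sequence over at least 20 clones) were computed with Python 3.11.15, pandas 2.3.3 and SciPy 1.17.1. Frames needed at least 7 matched bases. Single values were compared with exact permutation tests, and numbers of cells per gene (mean of at least 5 per library) with edgeR 4.0.16 (R 4.3.3) or, alternatively, DESeq2 1.42.0, adjusted by Benjamini-Hochberg. Scripts were tested on simulated data. The limit for a count of 0 is 3 cells, or 0.0525 to 0.0654% of a library's paired cells, and covers counting error only. Named genes were the most used D genes, the 8 most frequent V partners, up to 8 called ones per comparison, 6 light V genes, all J and constant genes, the 4 largest clones per pool and the 3 junctions in most clones. Members and lists were chosen with earlier results of these data known.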

Additional observations from a re-analysis of the deposited data

Results flagged for a closer look

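Of 38 groups of 4 libraries checked for a library apart from the others, 2 had one; chance marks about 1 group in 20. The IGHJ4 share of IGHD1-1 cells was 27.78% in KO replicate 4, with the nearest KO library at 23.76%. The mean match was 19.67 bases in KO replicate 2, with the nearest at 19.58.

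The KO minus WT difference was set for IGHD1-1 cells against that for cells with another D gene, over 11 measures. For CDR3 length, IGHD1-1 cells exceeded the others by 2.21 residues in KO and 1.64 in WT, a difference of 0.5701 (exact permutation p = 0.0286). For the tyrosine percentage they exceeded them by 4.17 points in KO and 5.92 in WT, a difference of -1.742 (exact permutation p = 0.0286). Neither passed after adjustment (adjusted p = 0.157 each).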

How the results depend on the processing

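The D name, the clones and the depth set the limits here: IGHD1-1 cells are those with long matches, a few clones hold many of them, and a library has 352 to 526. With 1 library left out, 35 assignments remain. No KO minus WT value of IGHD1-1 cells passed at an adjusted p under 0.05 with each clone counted once, at least 5 UMIs, 20 to 40 UMIs, or without any 1 library. This also held without IGHV8-8 and IGHV1-81, an alternative chosen after seeing the data, as were the V partner fits by a match of at least 12 bases. Other frame, germline and clone rules and no thinning each touched only 2 of the 18 values. Those 2 already had the smallest p of 0.0286 (exact permutation) and the rest kept theirs. No value could therefore pass in these settings, and they do not test the calls. By the exact permutation test at an unadjusted p under 0.05, 6 of 16 values stood with each clone counted once, 7 of 18 at 20 to 40 UMIs 8 of 18 without both V genes and 5 to 9 of 18 without any 1 library. Over all heavy rows, where fewer values are tested, 11 of 15 passed (adjusted p = 0.0390, exact permutation). These were the shares of paired cells (1.39) and of D-named cells (3.60), IGHJ1 (3.55) and IGHJ2 (-8.71), CDR3 length (0.62), the tyrosine frame (-2.70) and second frame (2.70), matched bases (0.49), IGHG1 (35.6), mutation (-0.18) and the unmutated share (13.0). The values of these frames mirror each other. With membership by a match of at least 12 bases, 12 of 18 passed (adjusted p = 0.0429, exact permutation): IGHJ1 (8.12), IGHJ2 (-9.10), CDR3 length (0.31), the third frame (1.46), matched bases (0.26), IGHG1 (40.5), mutation (-0.18), the unmutated share (11.4), expanded clones (-14.4), the effective number of clones (55.3), and, reversed, the tyrosine percentage (0.68) and second frame (-1.86); the tyrosine frame also reversed (0.40).

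Small differences changed sign. IGHJ3 (0.45) went to -0.0038 with each clone counted once, -0.32 over all heavy rows, -0.35 at 20 to 40 UMIs, -1.07 by match, and -0.67 to 1.11 without any 1 library. The switched share (-0.38) went to 0.78 and lambda (-0.62) to 0.12 at 20 to 40 UMIs, and the switched share ranged from -0.86 to 0.023 without any 1 library. Against other D genes, the KO minus WT difference went to -1.40 for IGHJ4 and 0.69 for the switched share with each clone counted once, and to 0.40 for the switched share against every cell not named IGHD1-1. Without 1 library it ranged from -0.92 to 0.070 for the switched share, above 0 without WT replicate 3 (0.070) and without KO replicate 2 (0.00070), and was -0.78 for IGHG1 without WT replicate 1; the IGHG1 share of IGHD1-1 minus other D ranged from -1.63 to 5.51. IGHV1-26 between pools went to 0.45 by match, and IGHV1-9 against other D to 0.025 with each clone counted once. By match, against all cells with a shorter match, IGHV1-9 went to 0.16. The cause was not tested.

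Of the 11 measures, 9 passed between IGHD1-1 cells and those of another D gene (CDR3 length and tyrosine, which the naming partly fixes, included), 8 with each clone counted once and 9 to 10 in the other settings. Of D genes, edgeR called 6 between pools, 3 with TMM factors, 2 without the filter, 1 with each clone counted once, 2 in DESeq2 and 0 to 6 without 1 library; without WT replicate 1 it called 0, with 5 at an unadjusted p under 0.05 (edgeR) against 6 over all libraries. Of V partners between pools it called 12, 4 with each clone counted once, 32 by match and 7 in DESeq2. Against other D genes the calls were 11, 17 without the filter, 6 with each clone counted once and 7 in DESeq2. By match they were 36, where the comparison was with all cells of a shorter match. TMM factors moved the median V partner by 0.16 between pools and each clone counted once by -0.17 on the log2 scale. The replicate numbers did not pair the samples, the correlations of same-numbered libraries being 0.43, -0.09, -0.32 and 0.28; with the replicate block edgeR called 2 D genes and 12 V partners. The replicate block was not run for the permutation tests, whose 16 assignments allow no p under 0.125. No value could be had for lambda and the clone measures over all heavy rows, for the clone measures with each clone counted once and for the D-named share by match.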
